A study of Vitis vinifera with 60 samples.

Results

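Carotenoid cleavage enzymes open the carbon chain of carotenoids, and 6 of their genes were followed here through berry ripening in 5 red-berried grapevine cultivars. The 6 genes were chosen by locus tag: 3 for 9-cis-epoxycarotenoid dioxygenases (NCED), 2 for carotenoid cleavage dioxygenase 4 (CCD4) and 1 for carotenoid cleavage dioxygenase 1 (CCD1). They occupy 6 of the 29287 entries of the deposited table. The enzyme names came with the list of tags, since neither the table nor the reference table of gene names annotates them (0 of the table's tags matched the reference). The NCED genes are VIT_19s0093g00550, VIT_10s0003g03750 and VIT_05s0051g00670. The CCD4 genes are VIT_02s0087g00910 and VIT_02s0087g00930, and the CCD1 gene is VIT_13s0064g00810. The digits between VIT_ and s in a tag are called its chromosome field. The build was not given in the sources used here, so no positions are printed.

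NCED enzymes cut epoxidised carotenoids of the plastid into xanthoxin, the precursor of abscisic acid, and this cut is regarded as the rate-limiting step of abscisic acid synthesis. Abscisic acid is the hormone most closely tied to the onset of ripening in grape, a fruit that ripens without a burst of ethylene. CCD1 and CCD4 enzymes cut carotenoids at other bonds and release apocarotenoids, among them norisoprenoid aroma compounds of grapes and wine such as beta-ionone. CCD1 enzymes work in the cytosol, and CCD4 enzymes in the plastid.

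RNA was taken from berry pericarp, which is the whole berry without its seeds, and sequenced without strand information. The cultivars Sangiovese, Barbera, Negroamaro, Refosco and Primitivo grew in one experimental vineyard, and berries were collected in one season at 4 stages: pea-sized, beginning to touch, soft, and ripe for harvest. Every combination of cultivar and stage, 20 in number, has 3 biological replicates in the labels, or 60 libraries. The deposited table holds 1 FPKM value (fragments mapped to a transcript, per unit of its length and of sequencing) per entry and combination, the authors' mean, so the spread between replicate berries and the read depth are unknown. Below, each ± is the SD across the 5 cultivars, values are listed in the order Sangiovese, Barbera, Negroamaro, Refosco and Primitivo, and folds are plain ratios of FPKM. In berry tissue, fewer cells with a transcript and less of it per cell cannot be told apart.

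The member with CCD4 tag VIT_02s0087g00910 shares its entry with VIT_02s0087g00920, and the CCD1 tag VIT_13s0064g00810 shares its entry with VIT_13s0064g00800. Each joined value belongs to both tags together, and what the partner tags encode is not known here. None of the 6 entries was at 0 in any column (0 entries). Column totals ran from 787405 to 1096120 FPKM.

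The harvest columns labelled Negroamaro and Primitivo went against their labels over the 18207 entries with a mean of at least 1 FPKM. After removal of each stage's mean, the harvest columns of Sangiovese, Barbera and Refosco correlated across genes with the earlier columns of their own cultivar (Pearson r = 0.50, 0.50 and 0.37). The column labelled Negroamaro harvest correlated with earlier Primitivo columns (r = 0.45) and not with earlier Negroamaro columns (r = -0.10). The column labelled Primitivo harvest correlated with earlier Negroamaro columns (r = 0.44) and not with earlier Primitivo columns (r = -0.09). Stage means contain both columns and do not depend on which is which, but cultivar values at harvest do. They are given below as labelled, and results that rest on them are also given with these 2 columns exchanged.

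Tests were run with limma on log2(FPKM + 1), with stage and cultivar in the model, over all 18207 entries that passed the mean of 1 FPKM. The log2 changes below are on that scale, on which low genes change by less than their folds. P-values are adjusted over all entries by the Benjamini-Hochberg method, and an entry is called changed at an adjusted p under 0.05. The error behind them is the residual variation of an entry after stage and cultivar, taken over all columns and moderated across entries. Every step of an entry therefore has the same SE, and the harvest columns affect the error of the earlier steps too. Of the 6 members 5 passed the filter; VIT_05s0051g00670 did not, and its tests come from a fit without the filter.

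The NCED gene on chromosome field 19 was the highest NCED transcript of green berries and the one that fell furthest by harvest. In pea-sized berries VIT_19s0093g00550 stood at 43.3, 42.8, 32.2, 39.7 and 49.9 FPKM. In touching berries it stood at 18.8, 16.5, 13.6, 18.4 and 19.7 FPKM. The 2 stages did not overlap, and the gene was between 2.16-fold and 2.59-fold lower in touching berries in 5 of 5 cultivars. The log2 change was -1.21 (SE 0.18, adjusted p = 0.00033). Soft berries held 14.2, 17.3, 6.03, 7.65 and 23.2 FPKM, a range that overlaps that of touching berries. At harvest it was at 1.09, 1.84, 0.987, 0.965 and 2.53 FPKM, below every value of the earlier stages. From soft to harvested berries it fell by 2.46 on the log2 scale (SE 0.18, adjusted p = 1.18e-06), between 6.10-fold and 13.1-fold across the cultivars as labelled, and 155 of the 18207 entries fell as far or further. With the Negroamaro and Primitivo harvest columns exchanged, it was still lower in 5 of 5, by 2.38-fold in Negroamaro and 23.5-fold in Primitivo.

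Softening itself moved this gene little on average, and the cultivars ranged from 2.40-fold lower to 1.18-fold higher. Whether they differed from each other at this step was not tested. From touching to soft berries VIT_19s0093g00550 went from 17.4 ± 2.41 to 13.7 ± 7.05 FPKM, lower in 3 of 5 cultivars. It was 2.26-fold and 2.40-fold lower in Negroamaro and Refosco, 1.32-fold lower in Sangiovese, and higher by 1.04-fold in Barbera and 1.18-fold in Primitivo. The log2 change of -0.46 (SE 0.18) passed the test narrowly, at an adjusted p of 0.0449, and 38.4% of the tested entries fell as far or further. The call was lost when the columns were scaled to their upper quartile (log2 change -0.22, adjusted p = 0.334), and without Sangiovese (-0.48, adjusted p = 0.0902), Negroamaro (-0.31, 0.204) or Refosco (-0.29, 0.245). The median log2 change of all tested entries at this step was -0.26 as deposited. It was -0.04 with upper-quartile scaling, 0.07 with quantile normalization and -0.45 with columns of equal total.

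By rank within each column, which does not depend on scaling, 72.6% to 82.0% of the tested entries lay below VIT_19s0093g00550 in pea-sized berries. The share was 47.6% to 58.4% in touching, 35.4% to 68.8% in soft and 13.1% to 23.7% in harvested berries. Stage accounted for 93.5% of the sum of squares of its log2 values and cultivar for 4.28% as labelled, where the median over the tested entries was 65.0% and 12.8%. With the 2 harvest columns exchanged, the cultivar share was 1.78% and the stage share was the same. The stage share was higher than that of 93.6% of the tested entries.

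The NCED gene on chromosome field 10 fell, rose and fell again over the 3 steps, with its higher levels in pea-sized and in soft berries. VIT_10s0003g03750 stood at 12.9, 8.28, 24.6, 8.45 and 22.8 FPKM in pea-sized berries. In touching berries it was at 3.91, 2.14, 4.92, 3.56 and 6.90 FPKM, without overlap between the 2 stages. The fall was between 2.37-fold and 5.01-fold in 5 of 5 cultivars, a log2 change of -1.56 (SE 0.33, adjusted p = 0.00394). Soft berries held 9.79, 11.2, 22.5, 10.7 and 4.79 FPKM. The level was thus higher than in touching berries in 4 of 5 cultivars, by 2.50-fold in Sangiovese, 5.22-fold in Barbera, 4.57-fold in Negroamaro and 2.99-fold in Refosco, and 1.44-fold lower in Primitivo. The log2 change was 1.20 (SE 0.33, adjusted p = 0.00707), and 4.62% of the tested entries rose as far or further. This step shares the touching columns with the one before it.

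At harvest VIT_10s0003g03750 was down again, at 2.76, 0.801, 2.92, 3.04 and 5.51 FPKM. The log2 change from soft berries was -1.64 (SE 0.33, adjusted p = 0.00153). As labelled the level was lower in 4 of 5 cultivars, by up to 13.9-fold in Barbera, and 1.15-fold higher in Primitivo. With the 2 harvest columns exchanged it was lower in 5 of 5, by 4.08-fold in Negroamaro and 1.64-fold in Primitivo. Pea-sized and soft berries overlapped, at 15.4 ± 7.82 and 11.8 ± 6.49 FPKM, and so did touching and harvested berries, at 4.29 ± 1.77 and 3.01 ± 1.67 FPKM. The highest stage was pea-sized in Sangiovese, Negroamaro and Primitivo and soft in Barbera and Refosco. Over ripening as a whole, soft and harvested against pea-sized and touching berries, this gene did not pass the test (log2 change -0.41, SE 0.24, adjusted p = 0.13). At equal column totals it did, with a log2 change of -0.57 (adjusted p = 0.0383).

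The NCED gene on chromosome field 5 was low at every stage and highest in soft berries. VIT_05s0051g00670 stood at 0.125, 0.104, 0.0542, 0.174 and 0.0876 FPKM in pea-sized berries. It was at 0.111, 0.0545, 0.133, 0.189 and 0.154 FPKM in touching berries. Neither stage reached 0.2 FPKM in any cultivar, and the ranges overlapped. In soft berries it stood at 2.09, 0.680, 1.26, 1.69 and 1.34 FPKM, between 8.74-fold and 18.8-fold higher than in touching berries in 5 of 5 cultivars. At harvest it stood at 0.591, 0.477, 0.644, 0.659 and 1.12 FPKM, and 5 of 5 cultivars were below their soft value, both as labelled and with the 2 harvest columns exchanged. In the fit without a filter the log2 change was 0.02 (SE 0.11, adjusted p = 0.938) from pea-sized to touching, 1.07 (SE 0.11, adjusted p = 3.74e-06) at softening and -0.49 (SE 0.11, adjusted p = 0.00424) at harvest. With a pseudocount of 1 these values are far smaller than the folds, because the gene lies near or below 1 FPKM.

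**Figure D1:**
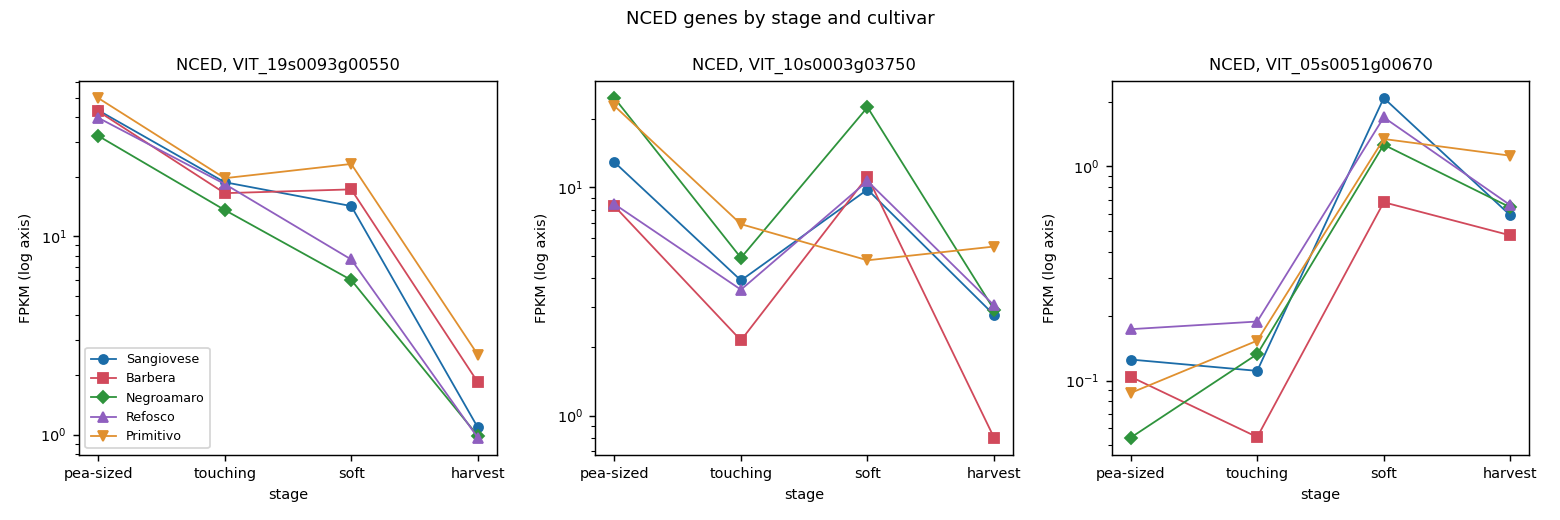
FPKM of the 3 NCED genes (log axis, a separate scale in each panel) at the 4 stages, with 1 point per cultivar and stage, each the authors' mean, and lines joining the columns of a cultivar as labelled. VIT_19s0093g00550 falls to between 0.965 and 2.53 FPKM at harvest, VIT_10s0003g03750 is higher in soft than in touching berries in 4 of 5 cultivars, and VIT_05s0051g00670 is highest in soft berries in 5 of 5.

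The make-up of the summed NCED level changed through ripening. FPKM is a value per transcript length, so levels of different genes can be added and compared. The sum of the 3 genes was 57.1 ± 9.46 FPKM in pea-sized, 21.8 ± 3.35 in touching, 26.9 ± 4.09 in soft and 5.19 ± 2.31 in harvested berries. VIT_19s0093g00550 made up 73.6% ± 11.2 of it in pea-sized and 80.0% ± 6.61 in touching berries, 50.3% ± 22.2 in soft berries and 30.7% ± 16.1 at harvest. VIT_10s0003g03750 made up 26.2% ± 11.3, 19.4% ± 6.51, 44.2% ± 21.9 and 55.5% ± 16.8 at the same stages. The share of VIT_05s0051g00670 was 0.200% ± 0.104 in pea-sized, 0.584% ± 0.214 in touching, 5.52% ± 2.62 in soft and 13.8% ± 1.13 in harvested berries.

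The order of the 2 larger NCED genes turned over in most cultivars. VIT_19s0093g00550 was above VIT_10s0003g03750 in all 10 columns of green berries, by 1.31-fold to 7.73-fold. In soft berries it was 4.84-fold higher in Primitivo, 1.55-fold in Barbera and 1.45-fold in Sangiovese, whereas VIT_10s0003g03750 was 3.73-fold higher in Negroamaro and 1.39-fold in Refosco. At harvest VIT_10s0003g03750 was the higher one in 4 of 5 columns, by 2.18-fold to 3.15-fold, and Barbera kept the earlier order, at 2.30-fold. Ratios were tested as log2((a + 1)/(b + 1)) of the FPKM values a and b of a pair, which is smaller in size than the plain log2 ratio, most of all where a gene is under 1 FPKM. On that scale the ratio of the 2 genes differed between stages (p = 0.0023, adjusted over 4 ratios 0.0023, exact permutation of the stages of each cultivar). It was 1.50 ± 0.77 in pea-sized and -0.62 ± 0.72 in harvested berries. On the same scale VIT_19s0093g00550 over VIT_05s0051g00670 went from 5.25 ± 0.22 to 0.52 ± 0.31 (exact permutation p = 3.01e-06, the smallest that 331776 assignments can give, adjusted 1.21e-05). VIT_10s0003g03750 over VIT_05s0051g00670 went from 3.75 ± 0.75 to 1.14 ± 0.50 (exact permutation p = 0.000365, adjusted 0.000715). The size of these 2 differences, but not their call, moved with the pseudocount: from pea-sized to harvested berries they were -4.73 and -2.62 with a pseudocount of 1, -6.72 and -4.29 with one of 0.1, and -3.00 and -1.45 with one of 5.

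**Figure D2:**
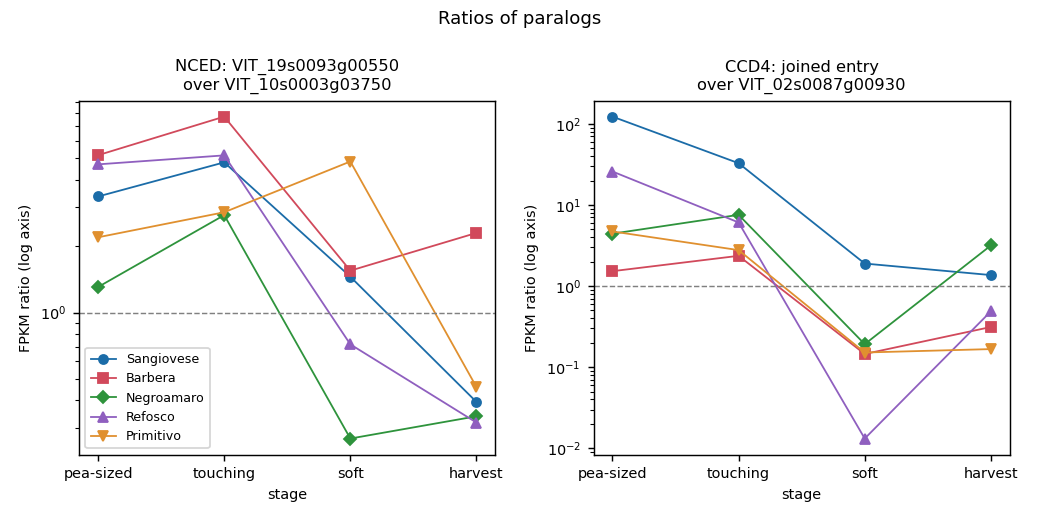
Ratio of FPKM (log axis) of VIT_19s0093g00550 to VIT_10s0003g03750 (left) and of the joined CCD4 entry to VIT_02s0087g00930 (right), with 1 point per cultivar and stage as labelled and a dashed line at equal levels. On the left all 10 green columns lie above the line and 4 of 5 harvest columns below it; on the right all 10 green columns lie above the line and 4 of 5 soft columns below it.

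The CCD4 gene VIT_02s0087g00930 rose at softening by more than nearly all tested entries. In pea-sized berries it stood at 0.0310, 0.101, 0.662, 0.0631 and 0.138 FPKM. In touching berries it stood at 0.251, 3.96, 0.338, 0.153 and 0.688 FPKM, so Barbera was the one cultivar above 1 FPKM before softening. Soft berries held 3.00, 132.3, 37.0, 21.8 and 20.9 FPKM, and the gene was between 11.9-fold and 142-fold higher than in touching berries in 5 of 5 cultivars. The log2 change was 3.85 (SE 0.52, adjusted p = 2.54e-05), and 106 of the 18207 entries rose as far or further. By rank, 0.895% to 3.86% of the tested entries lay below it in pea-sized berries, and 23.8% to 93.7% in soft berries. Its mean was 0.199 FPKM in pea-sized and 1.08 FPKM in touching berries, against 43.0 FPKM in soft berries. It thus passed the filter mainly through its ripe columns, so these ranks among tested entries are in part set by the filter.

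From soft to harvested berries VIT_02s0087g00930 moved in different directions in the cultivars as labelled, while their levels came closer together. At harvest it stood at 10.7, 54.0, 24.4, 60.1 and 53.9 FPKM, and the stage mean was 40.6 ± 21.7 against 43.0 ± 51.4 FPKM in soft berries. It was 3.57-fold higher than in soft berries in Sangiovese, 2.75-fold in Refosco and 2.58-fold in Primitivo, and 2.45-fold lower in Barbera and 1.52-fold lower in Negroamaro. With the 2 harvest columns exchanged it was 1.46-fold higher in Negroamaro and 1.17-fold higher in Primitivo, which leaves Barbera as the one cultivar with a lower value. The log2 change between soft and harvested berries was 0.49 (SE 0.52, adjusted p = 0.495). Sangiovese was the lowest cultivar in both ripe stages and Barbera the highest in soft berries. In soft berries the range over cultivars was 5.06 log2 units, and 0.582% of the tested entries had as wide a range there. At harvest the range was 2.38 log2 units, and 8.78% of the tested entries had as wide a range. Over all stages Sangiovese differed from the mean of the others by -1.54 (SE 0.46, adjusted p = 0.0555), which did not pass, and with the harvest columns exchanged it did (adjusted p = 0.0386).

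The joined CCD4 entry with VIT_02s0087g00910 was higher at harvest than in pea-sized berries in 5 of 5 cultivars, with wide differences between cultivars in timing. In pea-sized berries it stood at 3.80, 0.153, 2.92, 1.63 and 0.650 FPKM. In touching berries it stood at 8.20, 9.33, 2.55, 0.930 and 1.91 FPKM. The groups overlapped, and the value was 60.9-fold higher in Barbera while it was 1.75-fold lower in Refosco. In soft berries it stood at 5.67, 19.2, 7.09, 0.287 and 3.16 FPKM, again overlapping touching berries. At harvest it stood at 14.6, 16.9, 77.1, 29.3 and 8.99 FPKM. Neither of the first 2 steps passed the test (log2 changes 0.87, SE 0.63, adjusted p = 0.349, and 0.33, SE 0.63, adjusted p = 0.683).

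From soft to harvested berries the joined CCD4 entry rose by a log2 change of 2.03 (SE 0.63, adjusted p = 0.0193), and 1.24% of the tested entries rose as far or further. The value was higher in 4 of 5 cultivars, as labelled by 2.58-fold in Sangiovese, 2.84-fold in Primitivo, 10.9-fold in Negroamaro and 102-fold in Refosco. In Barbera it was 1.14-fold lower. The fold in Refosco starts from 0.287 FPKM. With the harvest columns exchanged it was 1.27-fold higher in Negroamaro and 24.4-fold in Primitivo. The call was lost without Refosco (log2 change 1.40, adjusted p = 0.119), without Negroamaro (1.72, adjusted p = 0.085) and without the 2 doubted harvest columns (1.75, adjusted p = 0.0853).

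The 2 CCD4 entries, neighbours on one scaffold, differed in when they rose. The joined entry was the higher one in all 10 green columns, by 1.52-fold to 122.6-fold. The largest of these ratios sets 3.80 against 0.0310 FPKM and the smallest 0.153 against 0.101 FPKM, and values that low have no stated precision. In soft berries VIT_02s0087g00930 was higher in 4 of 5 columns, by 5.21-fold to 76.0-fold, and the joined entry was 1.89-fold higher in Sangiovese. At harvest the joined entry was higher in the columns labelled Sangiovese and Negroamaro, by 1.36-fold and 3.16-fold. As log2((a + 1)/(b + 1)), the ratio of the joined entry to VIT_02s0087g00930 was 1.07 ± 0.82, 1.37 ± 0.88, -2.15 ± 1.78 and -0.61 ± 1.63 over the 4 stages, and it differed between stages in the exact permutation test (p = 0.000537, adjusted 0.000715). The difference from pea-sized to harvested berries was -1.69 on this scale, -3.09 with a pseudocount of 0.1 and -0.89 with one of 5. The sum of the 2 CCD4 entries was 2.03 ± 1.62 FPKM in pea-sized, 5.66 ± 5.10 in touching, 50.1 ± 58.1 in soft and 69.97 ± 29.2 in harvested berries. It includes any reads of the partner tag VIT_02s0087g00920, whose product is not known here. Both entries rose over ripening as a whole, VIT_02s0087g00930 by a log2 change of 4.38 (SE 0.37, adjusted p = 5.98e-08) and the joined entry by 1.77 (SE 0.44, adjusted p = 0.00216).

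**Figure D3:**
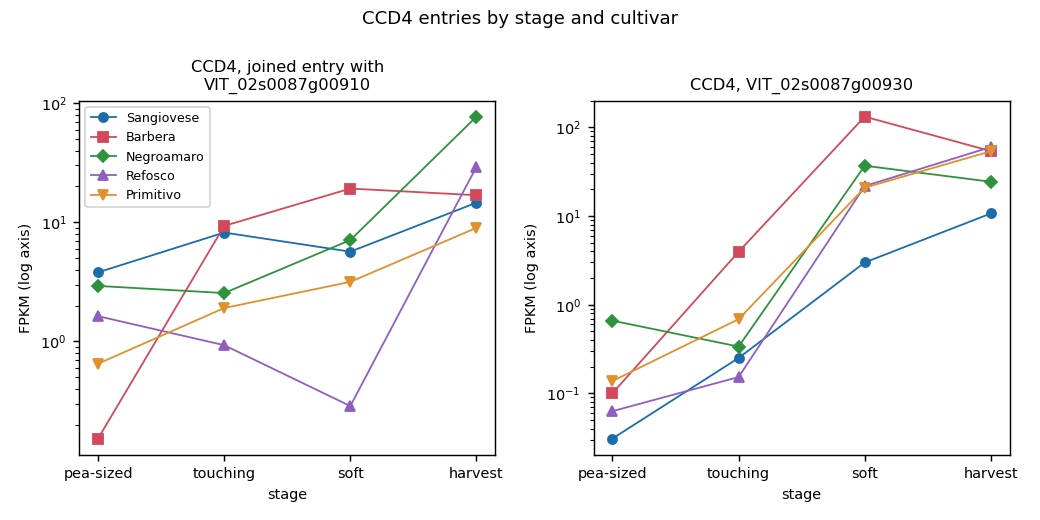
FPKM of the joined CCD4 entry with VIT_02s0087g00910 and of VIT_02s0087g00930 (log axis) at the 4 stages, with 1 point per cultivar and stage as labelled, each the authors' mean. VIT_02s0087g00930 goes from at most 3.96 FPKM in touching berries to between 3.00 and 132.3 FPKM in soft berries, while the joined entry reaches its highest value at harvest in 4 of 5 cultivars.

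In the joined CCD1 entry with VIT_13s0064g00810, more of the variation went with cultivar than with stage. As labelled, the largest part went with neither. In pea-sized berries it stood at 16.8, 11.4, 120.9, 26.8 and 20.8 FPKM. In touching berries it stood at 16.7, 130.1, 162.9, 31.2 and 27.9 FPKM, and the value in Barbera was 11.4-fold above its pea-sized value. Negroamaro was the highest cultivar at both stages. Soft berries held 1.93, 45.7, 68.8, 33.1 and 8.93 FPKM, with Negroamaro again highest and Sangiovese lowest. At harvest the columns stood at 8.82, 33.0, 7.80, 11.6 and 54.9 FPKM, with the column labelled Negroamaro lowest and that labelled Primitivo highest.

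No step passed the test for the CCD1 entry as labelled. The log2 changes were 0.89 (SE 0.73, adjusted p = 0.416) from pea-sized to touching, -1.35 (SE 0.73, adjusted p = 0.13) at softening and -0.13 (SE 0.73, adjusted p = 0.916) at harvest. The softening value was lower in 4 of 5 cultivars, with 8.64-fold in Sangiovese, 3.13-fold in Primitivo, 2.84-fold in Barbera and 2.37-fold in Negroamaro, and 1.06-fold higher in Refosco. From soft to harvested berries it was 8.81-fold lower in Negroamaro and 6.15-fold higher in Primitivo as labelled. With the harvest columns exchanged, it was 1.25-fold and 1.14-fold lower in these cultivars.

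The calls for the CCD1 entry depended on the 2 harvest columns. With them exchanged the softening change passed (log2 change -1.35, adjusted p = 0.0282), as did the change over ripening (-0.98, adjusted p = 0.019), and without these columns the softening change passed too (adjusted p = 0.0413). The test over cultivars gave an adjusted p of 0.163 as labelled, 0.00354 with the columns exchanged and 0.0153 without them. Negroamaro was 2.26 log2 units above the mean of the others with the columns exchanged (adjusted p = 0.0039) and 2.34 above it without them (adjusted p = 0.0208). As labelled the difference was 1.42 (adjusted p = 0.284). Sangiovese was 1.83 log2 units below the others as labelled and exchanged, with adjusted p = 0.0954 and 0.0133. Cultivar accounted for 37.1% of the sum of squares of the log2 values as labelled and 62.5% exchanged, and stage for 16.5% in both. As labelled, 85.2% of the tested entries had a lower cultivar share. The remainder, which went with neither stage nor cultivar, was 46.4% as labelled and 21.0% exchanged. As labelled, 91.1% of the tested entries had a lower remainder.

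**Figure D4:**
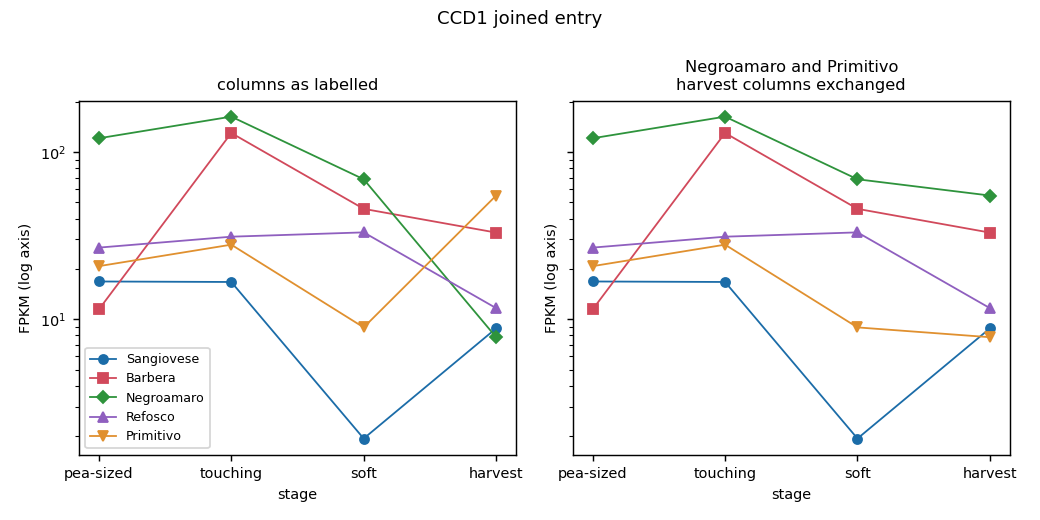
FPKM of the joined CCD1 entry (log axis) at the 4 stages, with 1 point per cultivar and stage, as labelled (left) and with the Negroamaro and Primitivo harvest columns exchanged (right). As labelled, Negroamaro is at 7.80 FPKM and Primitivo at 54.9 FPKM at harvest; exchanged, each lies at most 1.25-fold below its soft value.

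Counted over the 5 members tested, 2 fell from pea-sized to touching berries, where 10.5% of all tested entries fell, and 0 rose (0 also at an unadjusted limma p under 0.05), where 12.4% did. At softening 2 rose, against 13.9% of all entries, and 1 fell, against 41.5%. From soft to harvested berries 1 rose, against 14.9%, and 2 fell, against 24.5%. Over ripening as a whole 2 rose, against 23.5%, and 1 fell, against 51.2%. The median log2 change of the 5 was 0.56, 0.33 and -0.13 at the 3 steps, beside 0.03, -0.26 and -0.08 over all tested entries. With 5 members, each share moves by a large amount with a single gene, so nothing particular to the group is read from these counts.

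**Figure D5:**
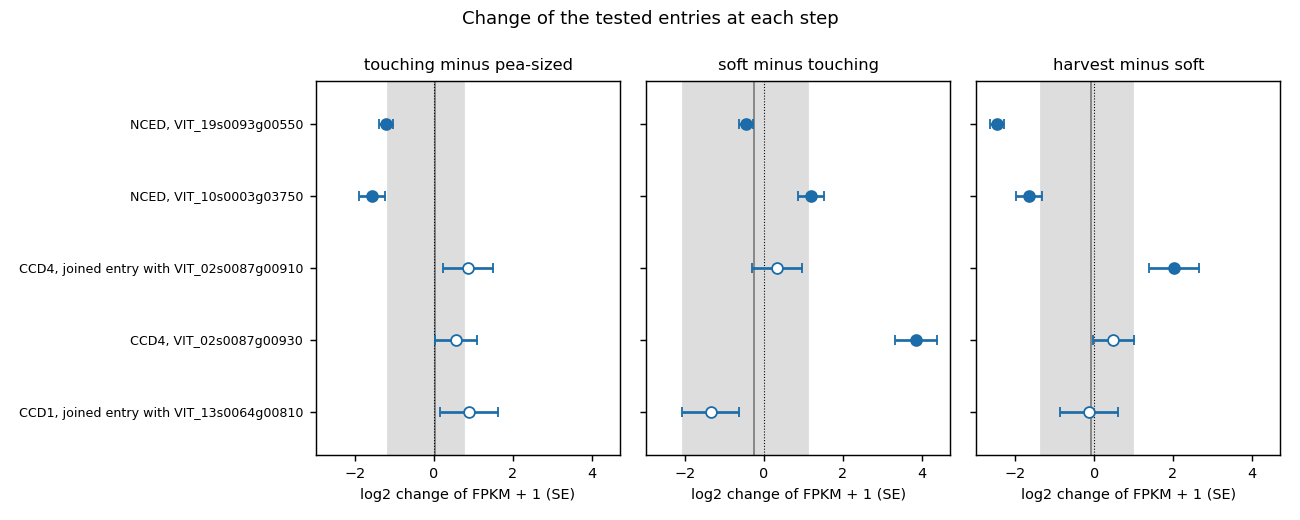
Log2 change of FPKM + 1 of the 5 tested entries at each step (points, with SE as bars; filled where the limma adjusted p is under 0.05), over the 5th to 95th percentile of the 18207 tested entries (grey band) and their median (grey line). Beyond the band and called are both NCED genes at the first step, VIT_10s0003g03750 and VIT_02s0087g00930 at softening, and both NCED genes and the joined CCD4 entry at harvest.

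Between cultivars 1 of the 5 tested members was called, against 16.3% of all tested entries. This comparison takes the 4 stages as the repeats of a cultivar, so it speaks of these vines and this season. The called gene was VIT_19s0093g00550 (adjusted p = 0.0344), with Primitivo 0.58 log2 units above and Negroamaro 0.58 below the mean of the others (SE 0.16 each, adjusted p = 0.0891 and 0.0787). Primitivo was the highest and Negroamaro the lowest cultivar in pea-sized, touching and soft berries. At harvest the columns labelled with these names kept that order, at 2.53 and 0.987 FPKM, and exchanged they would reverse it. The call was lost with the columns exchanged (adjusted p = 0.418), without them (0.0532), and without Sangiovese (0.0715), Barbera (0.0525), Negroamaro (0.115) or Primitivo (0.111). VIT_10s0003g03750 gave an adjusted p of 0.184, and without Primitivo it passed (0.0372). The joined CCD4 entry gave 0.312 and VIT_02s0087g00930 gave 0.088. Against the mean of the other cultivars, at a log2 difference of at least 1, limma called 0 of the 5 members in any cultivar as labelled. Of all tested entries 2.55% were called in Sangiovese, 1.47% in Barbera, 0.67% in Negroamaro, 2.06% in Refosco and 0.615% in Primitivo. At an unadjusted limma p under 0.05, without a minimum difference, 2, 2, 3, 0 and 1 members passed in the same order, as labelled. The share of all tested entries at that looser cut was not computed. These counts therefore cannot be set against the percentages above, and nothing is read from them.

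The entries next to the members on their scaffolds were read in the same fit. VIT_19s0093g00560, next to the NCED gene on field 19, stayed between 10.3 and 15.8 FPKM in all 20 columns, and its log2 change at harvest was -0.04 (SE 0.08, adjusted p = 0.717). VIT_10s0003g03730, next to the NCED gene on field 10, ranged from 5.97 to 18.4 FPKM and changed by 0.05, 0.13 and -0.32 over the 3 steps (SE 0.21, adjusted p = 0.887, 0.624 and 0.256). VIT_10s0003g03760, on its other side, reached at most 1.33 FPKM. VIT_05s0051g00680, next to the NCED gene on field 5, fell by 1.18 on the log2 scale at the first step (SE 0.30, adjusted p = 0.0121) and by 2.67 at softening (adjusted p = 4.64e-06), with -0.11 at harvest (adjusted p = 0.812). On the other side, VIT_05s0051g00660 fell by 0.57 at the first step (adjusted p = 0.00434) and by 0.60 at harvest (adjusted p = 0.00158), with 0.18 at softening (adjusted p = 0.22). VIT_13s0064g00790, next to the CCD1 entry, fell by 1.79 at softening (SE 0.27, adjusted p = 7.19e-05). VIT_02s0087g00890, on the other side of the CCD4 pair, passed at no step (adjusted p = 0.186, 0.172 and 0.173). VIT_19s0093g00540, VIT_02s0087g00940 and VIT_13s0064g00820 were listed at 0 in every column.

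The genes most like each member were ranked by Pearson correlation of log2(FPKM + 1) over the 20 columns, which share stages and cultivars. The most similar to VIT_19s0093g00550 were VIT_00s0533g00050 (r = 0.97), VIT_09s0002g00130 (r = 0.97) and VIT_13s0019g04950 (r = 0.97), and the first of these was at 239.7 ± 21.6 FPKM when pea-sized and at 17.0 ± 5.03 FPKM when ripe. VIT_10s0003g03750 had less close matches, VIT_07s0129g00370 (r = 0.80), VIT_14s0108g01020 (r = 0.78) and VIT_08s0058g01460 (r = 0.78). VIT_14s0108g01020 stood at 261 ± 47.4, 14.7 ± 6.33, 73.7 ± 38.9 and 2.42 ± 2.06 FPKM over the 4 stages. Its stage means fell and rose in the same order, which the choice by correlation favours. The order did not hold in Primitivo. There VIT_14s0108g01020 went from 21.2 FPKM in touching to 115.1 FPKM in soft berries, and VIT_10s0003g03750 from 6.90 to 4.79 FPKM. For VIT_02s0087g00930 they were VIT_08s0056g00200 (r = 0.97), VIT_12s0035g01050 (r = 0.97) and VIT_04s0044g01230 (r = 0.95). The size of the rise from touching to soft berries differed among them. It was from 297.9 ± 48.5 to 713.1 ± 218.2 FPKM for VIT_08s0056g00200 and from 2.50 ± 1.54 to 33.5 ± 21.3 FPKM for VIT_12s0035g01050. VIT_04s0044g01230 rose from 2.63 ± 1.58 FPKM in touching to 153.5 ± 129.1 FPKM in soft berries, with Barbera highest in both. The joined CCD4 entry was closest to VIT_14s0108g01680 (r = 0.90), VIT_04s0008g01780 (r = 0.89) and VIT_14s0083g00930 (r = 0.89), and the CCD1 entry to VIT_03s0091g00620 (r = 0.87), VIT_16s0022g02100 (r = 0.85) and VIT_07s0141g00670 (r = 0.82). VIT_16s0022g02100 was highest in Negroamaro in pea-sized and touching berries, as the CCD1 entry was, but in Barbera in soft and harvested berries, unlike that entry. VIT_03s0091g00620 and VIT_07s0141g00670 were highest in Negroamaro in pea-sized and soft berries and in the column labelled Primitivo at harvest, as the CCD1 entry was. In touching berries both were highest in Barbera, unlike it.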

How the data were processed

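Total RNA of berry pericarp was made into non-directional libraries, per the labels' protocols. Cufflinks 2.0.2 and TopHat2 2.0.6 stand in the submitters' processing notes, with no role stated; the build and annotation were not given in the sources used here. The deposited values are FPKM, and the file's name calls them means. The table has 29287 entries, 608 of which join locus tags. Each column was taken as the authors' mean of 1 cultivar and stage. Without strand, reads of antisense partners cannot be told apart. Low values were searched for a step of a single read: over 190 column pairs, at most 3.74% (median 2.14%) of genes under 0.05 FPKM shared a ratio, so no depth was derived and no counting interval computed.

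The members and gene lists were chosen with earlier results of these data known. Pathway lists and seed markers defined by product name were not used, because 0 tags matched the reference, so the label of the tissue was not checked against markers. Beyond the members, the rule named neighbours by tag number and the 3 most correlated genes. Where the next tag had no entry, the nearest entry was taken.

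Analyses used R 4.3.3 with limma 3.58.1 (trend, 12 residual degrees of freedom, two-sided) and Python 3.11.15. On data simulated for soft against touching berries (18207 genes), 24% of genes moved by 0.5 log2 units were recovered, 62% at 1, 94% at 2 and 100% at 4. Only a small part of the genes was moved there, in soft and harvest columns alike, on normal noise. In the deposited data 10089 of the 18207 entries were called at softening, so these rates do not give the power of the real test. Ratios of paralogs were compared between stages by exact permutation. Alternatives were other pseudocounts (0.1 and 5) and filters (none, or a mean of 5 FPKM), 3 scalings, robust hyperparameters, no cultivar term, each cultivar left out, and the Negroamaro and Primitivo harvest columns exchanged or left out.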

Additional observations from a re-analysis of the deposited data

Results flagged for a closer look

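Of 24 groups of 5 cultivars, 1 per member and stage, 2 held a cultivar far from the others on the scale of log2(FPKM + 1). Chance gives about 1 in 20 groups. VIT_02s0087g00930 stood at 0.662 FPKM in pea-sized Negroamaro, above the other cultivars, and at 3.96 FPKM in touching Barbera, above the other cultivars. All values of these 2 groups but that of touching Barbera were under 1 FPKM, where no precision is stated. Whether the 2 stand out without the added 1 was not tested.

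Cultivars moved in opposite directions by at least 2-fold (FPKM + 1) at the step from soft to harvested berries for 2 members. The difference was not tested, because each cultivar has 1 value per stage. VIT_02s0087g00930 changed by 1.55 log2 units in Sangiovese, 1.42 in Refosco and 1.33 in Primitivo as labelled, and by -1.28 in Barbera. The joined CCD1 entry changed by 1.74 in Sangiovese and 2.49 in Primitivo, and by -2.99 in Negroamaro and -1.43 in Refosco. With the 2 doubted harvest columns exchanged, the CCD1 values were -0.32 in Negroamaro and -0.17 in Primitivo, and the VIT_02s0087g00930 values were 0.53 and 0.21.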

How the results depend on the processing

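Of the members' calls, those of VIT_19s0093g00550 from pea-sized to touching and from soft to harvested berries, all 3 steps of VIT_10s0003g03750, the softening rise of VIT_02s0087g00930, and the paralog ratios kept their direction and their side of the threshold under every alternative run on them. The softening fall of VIT_19s0093g00550 did not. Its log2 change was -0.50 with a pseudocount of 0.1, -0.34 with one of 5, -0.46 with no filter, no cultivar term, or the 2 harvest columns exchanged or left out, -0.22 under upper-quartile scaling and -0.11 under quantile normalization, none of them past the threshold, and -0.63 to -0.29 with a cultivar left out. The number of members called falling at softening was accordingly 0 with either pseudocount, no filter, these 2 scalings or no cultivar term, and 0 to 1 with a cultivar left out. Of all tested entries, 7569 and 7468 fell there with these pseudocounts and 8136 of 26459 with no filter, against 7563 of 18207. The number was 5194 and 4450 under these scalings, 6661 with no cultivar term and 6666 to 7079 with a cultivar left out. The F value of VIT_19s0093g00550 over cultivars was 6.12, and it lost its call at 5.30 with a pseudocount of 5, 1.29 with the harvest columns exchanged and 4.91 without them, with 4.27 to 8.16 when a cultivar was left out. The number of members called between cultivars was then 0 with a pseudocount of 5, and 0 to 1 with a cultivar left out. Of all tested entries, 2726 were called between cultivars with a pseudocount of 5, against 2973. For VIT_10s0003g03750, F ran from 1.46 to 7.86 with a cultivar left out, and its change over ripening was called at equal column totals, at -0.57. The harvest rise of the joined CCD4 entry was 1.40 to 2.58 with a cultivar left out and 1.75 without the 2 harvest columns, and the number of members rising at harvest was then 0 to 1 and 0. Of all tested entries, 1800 to 2751 and 2700 rose at harvest in these fits, against 2718. The CCD1 entry was called at softening (-1.35) with the columns exchanged or left out, over ripening (-0.98) with them exchanged, and between cultivars with F at 10.6 and 7.995. The members falling over ripening were 2 at equal totals and 2 with the columns exchanged. Of all 18207 tested entries, 10701 fell over ripening at equal totals and 9569 with the columns exchanged, against 9316. Over all entries, 2407 to 3595 changed from pea-sized to touching berries with a cultivar left out, against 4165, and the entries called between cultivars were 958 to 2563, 5224 with the columns exchanged and 4522 without them, against 2973. The causes were not tested. Rising entries were 25.0% of those called at softening. The share was 45.6% under upper-quartile scaling, 54.9% under quantile normalization and 13.7% for equal totals, and at the other 2 steps, for equal totals, 25.9% against 54.1% and 65.8% against 37.8%. Cultivar was the block of the fits and permutations. No paired analysis was possible by replicate number, because the columns are means without such numbers. Depth and replicate spread are unknown, so values under 1 FPKM have no stated precision, nor have folds that start from them. Such are most values of VIT_05s0051g00670, those of VIT_02s0087g00930 in pea-sized berries and some of the joined CCD4 entry before harvest.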
